A study of Homo sapiens with 16 samples.

Results

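The genes described here are the ZNF genes of human chromosome 19, a set of zinc finger genes that lie mostly in dense clusters on that chromosome. Members were all genes of the count table whose symbol is ZNF followed by a digit and whose position is on chromosome 19, which gave 260 of 23354 genes. The lowest counts were removed by a filter set on all genes, after which 210 members remained among 14215 genes tested. The other 50 members were not tested, since their highest count in any library was 11, and 8 of them had 0 counts throughout. Total RNA without ribosomal RNA was sequenced from MM1S and MM1R, 2 lines of human multiple myeloma, a cancer of plasma cells. MM1S is sensitive to glucocorticoids, and MM1R is its resistant counterpart. Each line had received vehicle, 0.1 μM TAK-981, 1 μM dexamethasone (Dex) or the combination of both at the same doses (combo) for 48 h. TAK-981 blocks the enzyme that activates SUMO, a small protein attached to other proteins, and the question was what its addition did with and without the glucocorticoid Dex.

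Most zinc finger genes of these clusters encode a KRAB domain followed by a row of zinc fingers that bind DNA. The KRAB domain recruits TRIM28 (KAP1), which in turn brings the histone methyltransferase SETDB1 and heterochromatin proteins, and SUMO attached to TRIM28 is needed for that recruitment. The targets of these proteins include retrotransposons and, through ZNF274, the 3′ ends of zinc finger genes themselves, which carry repressive histone methylation.

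There were 2 libraries in each of the 8 groups, with 15707587 to 24796539 counts in a library, so each group mean rests on 2 values. The labels give the treatments as duplicates and do not say that the libraries came from separate cultures, so the p-values measure the spread between these libraries, which may be technical. The libraries of MM1S with TAK-981 and of MM1S with Dex differed most within their group (chi-square per degree of freedom of 17.3 and 15.9, against 1.88 to 7.64 in the other 6 groups). Of 8 plasma cell markers all were present in every library, among them IRF4 (528 to 1440 CPM, a gene's counts scaled to library size by TMM) and CD38 (6.89 to 44.0 CPM). The markers of B cells, T cells, monocytes and red cells were at or near 0, apart from CD3E (0.382 to 5.24 CPM) and HBB (1.32 to 12.2 CPM). Many members are close copies of each other, and how reads shared between copies were counted is not given in the sources used here, so values of single members are uncertain to that extent. Whether strand was used is not given either, so the 8 members with hyphenated symbols (antisense and read-through transcripts) cannot be told apart from the genes they overlap.

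Addition of TAK-981 to either line raised the level of most chromosome 19 ZNF genes. In MM1S, 121 of 210 tested members rose with TAK-981 against vehicle and 10 fell (edgeR quasi-likelihood test, Benjamini-Hochberg adjusted p under 0.05), where 25.2% of all genes rose and 23.7% fell, 49.0% in all. The median log2 fold change of the members was 0.45, against 0.04 over all genes. In MM1R, 137 members rose and 4 fell, where 25.8% of all genes rose and 27.6% fell, 53.4% in all. Their median log2 fold change there was 0.57, against 0.00 over all genes. Of the members called, 31 in MM1S and 33 in MM1R rose by 2-fold or more, and 1 in each line fell by that much. Of all 14215 genes tested, 728 rose and 684 fell by that much in MM1S, and 1028 rose and 341 fell in MM1R. In cell cultures such as these, more RNA per cell and a change in the share of cells that express a gene cannot be told apart. With each library left out in turn, 96 to 119 members rose in MM1S, among them 101 without TAK-981 replicate 1. In MM1R it was 113 to 122. The number that fell in MM1S was 6 without either vehicle library or without TAK-981 replicate 2.

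**Figure D1:**
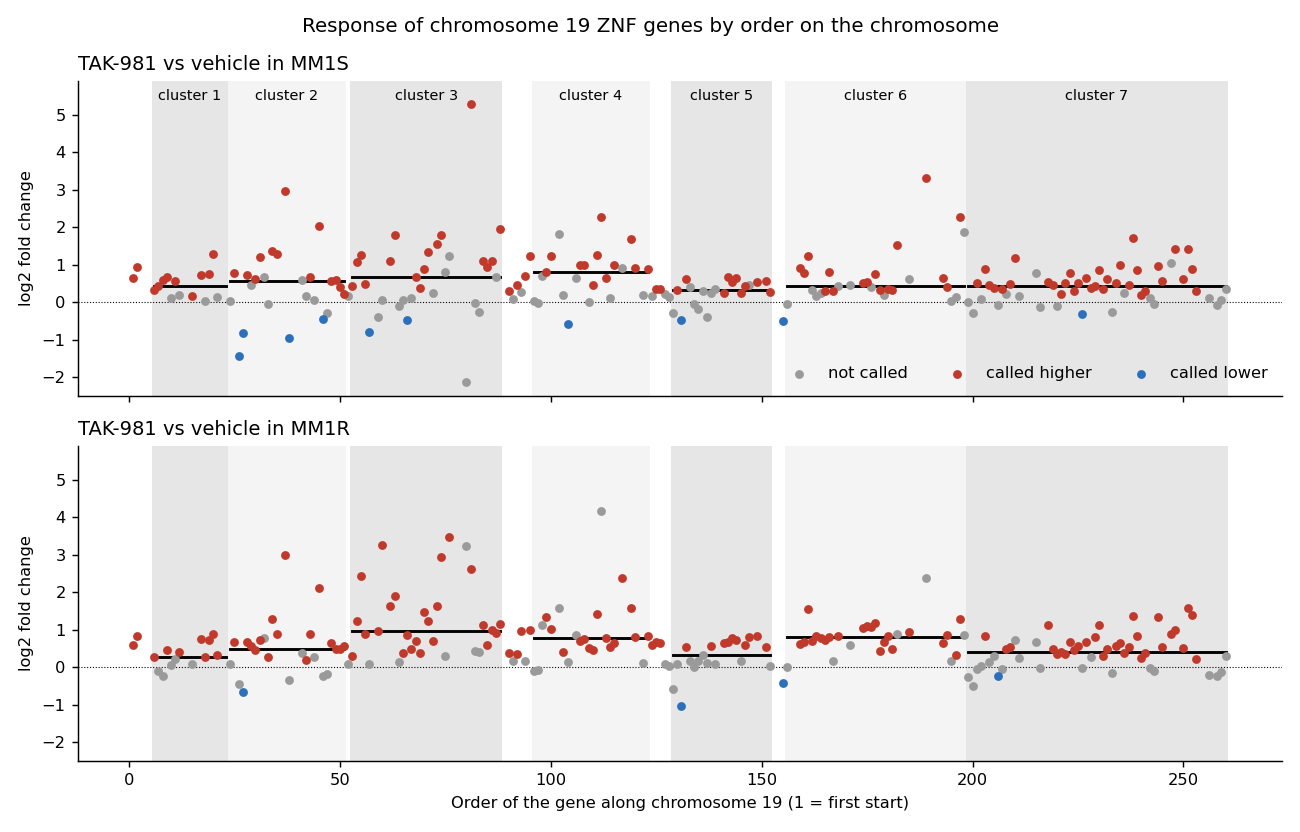
Log2 fold change of TAK-981 against vehicle (y axis) for the 210 tested ZNF genes in their order along chromosome 19 (x axis, no unit), in MM1S (top) and MM1R (bottom). Red and blue points are genes called higher and lower at an adjusted p under 0.05, shading marks the 7 clusters of 10 or more tested members and black lines are their medians, all of which lie above 0 in both lines. The highest point in MM1S, 5.29, is ZNF728, whose vehicle libraries had 0 counts.

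ZNF274, whose product recruits SETDB1 to zinc finger genes, lay at chr19:58694396-58724927 on the plus strand (hg19). In MM1S its level was 12.6 and 12.8 CPM with vehicle, 33.2 and 34.1 with TAK-981, 11.3 and 12.9 with Dex, and 31.4 and 30.2 with combo. In MM1R it was 8.81 and 10.2 CPM with vehicle, 27.9 and 29.01 with TAK-981, 8.09 and 10.5 with Dex, and 26.9 and 26.3 with combo. The 4 libraries with TAK-981 lay above the 4 without it in each line, with no overlap, and the Dex libraries overlapped the vehicle libraries. The log2 fold change was 1.40 (SE 0.10, edgeR adjusted p = 2.84e-09) in MM1S and 1.58 (SE 0.11, edgeR adjusted p = 1.15e-09) in MM1R.

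ZNF208, a KRAB gene with 36 zinc fingers at chr19:22115760-22193745 on the minus strand (hg19), rose in both lines. Its level in MM1S was 4.79 and 5.59 CPM with vehicle and 19.6 and 16.5 with TAK-981, and in MM1R it was 2.19 and 1.90 CPM with vehicle and 15.9 and 15.3 with TAK-981. The vehicle and TAK-981 libraries did not overlap in either line, which the rule for naming members by adjusted p required. The MM1R vehicle level was below that of MM1S while the levels with TAK-981 lay close together. The log2 fold change was 1.80 (SE 0.13, edgeR adjusted p = 3.13e-09) in MM1S and 2.93 (SE 0.16, edgeR adjusted p = 4.55e-11) in MM1R.

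ZNF91, at chr19:23540498-23578269 on the minus strand (hg19), encodes a repressor of SVA retrotransposons. It was at 22.7 and 25.3 CPM with vehicle and 58.6 and 44.4 with TAK-981 in MM1S, and at 48.6 and 48.7 with vehicle and 110.3 and 103 with TAK-981 in MM1R. The TAK-981 libraries lay above the vehicle libraries in each line, and the vehicle level was higher in MM1R than in MM1S. The log2 fold changes were 1.10 (SE 0.13, edgeR adjusted p = 1.65e-06) and 1.13 (SE 0.11, edgeR adjusted p = 4e-07).

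ZNF737, which lies in the same cluster as ZNF91 and ZNF208, was at 11.7 and 9.79 CPM with vehicle and 26.1 and 19.97 with TAK-981 in MM1S. In MM1R the values were 10.8 and 9.48 CPM with vehicle and 32.1 and 30.2 with TAK-981. Its TAK-981 libraries lay above the vehicle libraries in each line, which the naming rule also required. The log2 fold change was 1.10 in MM1S (edgeR adjusted p = 1.05e-06) and 1.62 in MM1R (edgeR adjusted p = 4.57e-09). ZNF844 was close to absent without TAK-981, at 0.308 to 0.538 CPM in the vehicle libraries of both lines, which is 6 to 13 counts. It reached 3.32 and 2.16 CPM with TAK-981 in MM1S and 3.81 and 3.89 CPM in MM1R. Its log2 fold changes of 2.97 and 3.004 (edgeR adjusted p = 4.29e-07 and 4.52e-08) therefore start from few counts.

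Other KRAB genes known for what they repress also rose in both lines. ZNF350 (ZBRK1), a repressor that binds BRCA1, rose by 0.78 (MM1S) and 0.66 (MM1R) on the log2 scale. ZNF417 and ZNF587, which are near copies and silence endogenous retroviruses, rose by 0.57 and 0.19 in MM1S and by 0.52 and 0.25 in MM1R. The call of ZNF587 in MM1S was lost with library size only (0.14), without the filter on low counts (0.18), in a fit of the compared groups alone (0.16), in DESeq2 (0.17) and in 3 of the 4 fits with a library left out (0.14 to 0.23 over the 4). ZNF224 rose by 0.24 and 0.65, and its MM1S call was lost with library size only (0.19), in the fit of the compared groups alone (0.21), in DESeq2 (0.22) and in 2 of the 4 fits with a library left out (0.21 to 0.27). ZNF331 was under 1 CPM in all libraries and did not pass the test (log2 fold change 1.87, SE 0.82, edgeR adjusted p = 0.0684 in MM1S). ZNF649, a KRAB repressor, had 0 to 11 counts and ZNF382 had 0 to 2, so neither was tested.

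Among the members with the smallest adjusted p in MM1S were also ZNF763 (log2 fold change 1.36), ZNF506 (1.26), ZNF211 (1.00), ZNF675 (0.94), ZNF544 (0.89) and ZNF671 (0.87). In MM1R the members with the smallest adjusted p also included ZNF506 (2.45), ZNF264 (1.12), ZNF808 (1.06), ZNF814 (1.34), ZNF626 (1.91) and ZNF728 (2.61). ZNF728 had 0 counts in both MM1S vehicle libraries and 4 and 5 counts with TAK-981, at least 1.46-fold higher when 3 counts in a library are taken as the limit. In MM1R it had 23 and 24 counts with vehicle and 99 and 133 with TAK-981. Some of the highest fitted values came from few counts. ZNF585B, named after its value was seen, had 0 and 0 counts with vehicle and 0 and 4 with TAK-981 in MM1R, and did not pass the test there.

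**Figure D2:**
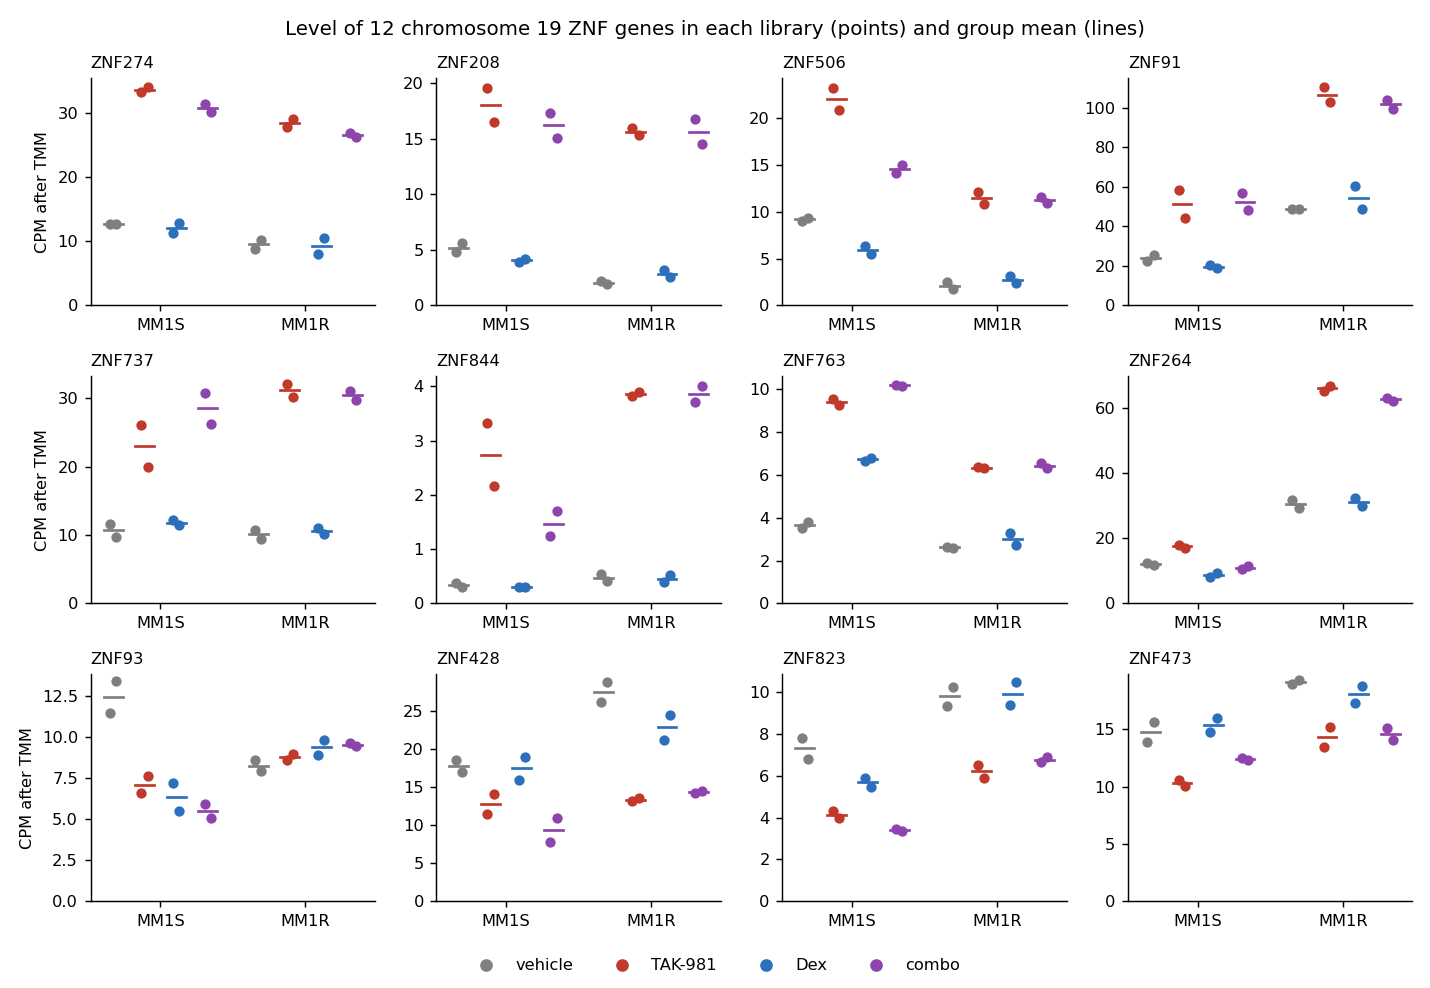
Level in CPM after TMM scaling (y axis, linear, from 0) of 12 ZNF genes in each library, by line and treatment; points are libraries and lines the means of 2. ZNF274, ZNF208, ZNF506, ZNF91, ZNF737, ZNF844, ZNF763 and ZNF264 lie higher with TAK-981 in both lines than with vehicle (ZNF264 at 12.4 and 11.9 against 18.1 and 17.0 CPM in MM1S), ZNF93 is lower than vehicle in all other MM1S groups, and ZNF428, ZNF823 and ZNF473 lie lower with TAK-981.

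Few members fell. ZNF428, ZNF473 and ZNF823 were the members that fell with TAK-981 in both lines, and all 3 also fell with combo against Dex in both. ZNF428, which has a single zinc finger and no KRAB pattern, was at 18.7 and 17.1 CPM with vehicle and 11.5 and 14.1 with TAK-981 in MM1S, and at 26.2 and 28.8 against 13.2 and 13.6 in MM1R. ZNF823, a KRAB gene, was at 7.80 and 6.82 CPM against 4.31 and 3.96 in MM1S, and at 9.34 and 10.2 against 6.50 and 5.91 in MM1R. ZNF473, whose product takes part in the processing of histone mRNA, was at 13.9 and 15.6 against 10.6 and 10.1 CPM in MM1S, and at 18.9 and 19.3 against 13.5 and 15.2 in MM1R. The TAK-981 libraries lay below the vehicle libraries for all 3 genes in each line, which the rule for naming such members required. The log2 fold changes in MM1S were −0.48, −0.82 and −0.51, and in MM1R −1.04, −0.66 and −0.41 for ZNF428, ZNF823 and ZNF473 (edgeR adjusted p from 2e-06 to 0.00626). The MM1S call of ZNF428 was lost without vehicle replicate 1 (−0.42) and without TAK-981 replicate 1 (−0.34), while the calls of ZNF823 and ZNF473 held in all 4 fits with a library left out in each line.

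ZNF93, a repressor of LINE-1 retrotransposons in the same cluster as ZNF91, fell in MM1S from 11.5 and 13.4 CPM with vehicle to 6.59 and 7.62 with TAK-981 (log2 fold change −0.81, SE 0.13, edgeR adjusted p = 6.03e-05). In MM1R it was at 8.60 and 7.96 CPM with vehicle and 8.64 and 8.97 with TAK-981 (log2 fold change 0.09, edgeR adjusted p = 0.598). The pseudogene ZNF833P (−1.45) and ZNF788 (−0.97) also fell in MM1S. ZNF799 (−0.45), ZNF749 (−0.31) and ZNF850 (−0.59) passed the test in MM1S, but not in a fit of the compared groups alone or in DESeq2. With a library left out the calls were lost in 2, 3 and 3 of 4 fits. Without TAK-981 replicate 1 and replicate 2, ZNF799 was at −0.76 and −0.20 and ZNF850 at −0.96 and −0.30. ZNF714 was called in opposite directions, at −0.47 in MM1S and 0.85 in MM1R, and its MM1S call was lost in DESeq2 and in 3 of the 4 fits with a library left out (−0.35 to −0.62 over the 4). ZNF787 fell by 0.25 on the log2 scale in MM1R, a call that was lost in 2 of the 4 fits with a library left out.

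The same comparison in the presence of Dex used other libraries throughout, combo against Dex. In MM1S, 119 members rose and 5 fell (22.2% and 25.4% of all genes), with a median log2 fold change of 0.45. In MM1R, 134 rose and 4 fell (23.1% and 25.3% of all genes), with a median of 0.50. The number that fell in MM1S was 3 without Dex replicate 2 and 2 without combo replicate 2, and in MM1R it was 2 without Dex replicate 2. Of the members that rose with TAK-981 alone in MM1S and those that rose with combo against Dex there, 96 were shared, 79.3% of the first list and 80.7% of the second, where over all genes the shared ones were 54.3% and 61.7% of the lists. In MM1R, 121 were shared, which is 88.3% and 90.3% (76.0% and 85.0% over all genes). Between the lines, 103 members rose with TAK-981 in both, 85.1% of the MM1S list and 75.2% of the MM1R list (69.4% and 67.9% over all genes). A larger share of the members than of all genes was called higher in each comparison, which alone raises such shares. The sign of the fold change was the same in both lines for 187 of 210 members (89.0%, against 80% of all genes). Across these 210 genes, which share depth and scaling within each library, the log2 fold changes of the 2 lines had a Pearson r of 0.62, against 0.75 across all genes. Between TAK-981 alone and combo against Dex, r was 0.35 in MM1S (0.69 across all genes) and 0.89 in MM1R (0.84). The sign was the same for 184 members in MM1S (87.6%, against 74.2% of all genes) and 203 in MM1R (96.7%, against 87.8%). Fitted values of members with 0 counts in a group enter r, among them ZNF99, which had none in MM1S with Dex. The r was not recomputed without such members.

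In all 4 of these comparisons, 87 members rose, 10.8% being the share of all genes that did so, and 3 fell (14.2% of all genes). Taken by library, all 4 libraries with TAK-981 lay above all 4 without it for 104 members in MM1S (13.9% of all genes), for 153 in MM1R (30.2%) and for 99 in both lines (11.3%). All 4 lay below for 3 members in MM1S (14.2% of all genes), 7 in MM1R (32.5%) and 3 in both (13.0%). Summed over the tested members, the level ran from 2812 to 3196 CPM in the 8 libraries without TAK-981 and from 3650 to 4053 CPM in the 8 with it. MALAT1, an abundant nuclear RNA, took 2.85 to 3.47% of counts without TAK-981 and 5.22 to 6.17% with it, so the composition of the libraries moved with the drug, and its part in the result was not tested.

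**Figure D3:**
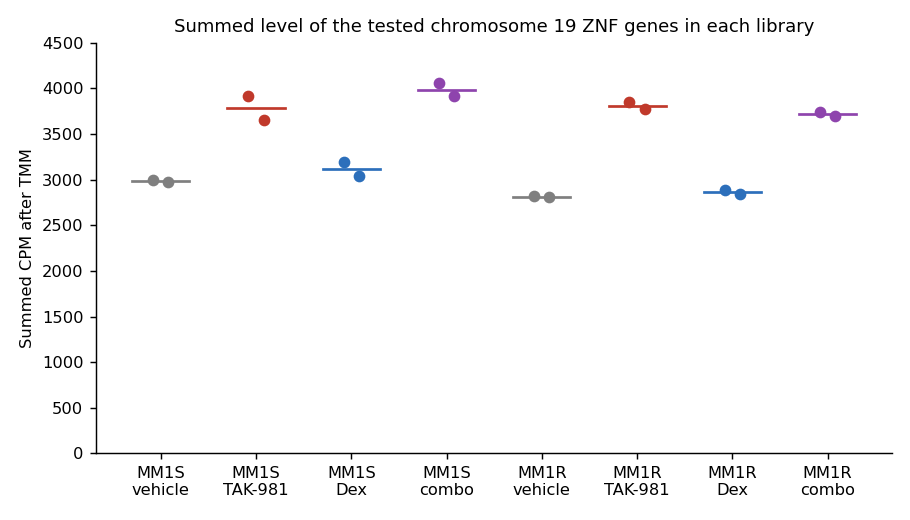
Summed level of the 210 tested chromosome 19 ZNF genes in CPM after TMM scaling (y axis, from 0) in each of the 16 libraries (points), with the mean of each group (lines). The 8 libraries with TAK-981 lie between 3650 and 4053 CPM, above the 8 without it at 2812 to 3196 CPM.

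The members are low in these cells, and a gene that is low with vehicle can pass the filter through the treated groups alone. The filter level was 0.493 CPM. Among the 191 members at or above it in both MM1S vehicle libraries, 111 rose and 10 fell with a median log2 fold change of 0.41, where 25.2% and 25.9% of the 12957 genes chosen in the same way rose and fell. Among the 190 such members in MM1R, 128 rose and 4 fell with a median of 0.53, where 25.1% and 30.9% of 12685 genes did. With the 137 members at a mean of 5 CPM or more, 87 rose in MM1S and 96 in MM1R, with medians of 0.35 and 0.47. Per kilobase of exon, the median level of the members was 2.36 CPM in MM1S vehicle and 2.24 in MM1R vehicle, and it lay from 2.89 to 3.23 in the groups with TAK-981, where the median over all genes was 7.08 to 7.34 in every group. The member with the highest level per kilobase in vehicle was ZNF460 in MM1S (34.1 CPM) and ZNF146, which has zinc fingers and no KRAB domain, in MM1R (32.6 CPM). The lowest tested members had 0 counts in both vehicle libraries, ZNF728 in MM1S and ZNF99, ZNF175, ZNF347 and ZNF585B in MM1R. ZNF146 was at 111.4 and 100.3 CPM with vehicle and 108.5 and 101.6 with TAK-981 in MM1S, values that overlapped (log2 fold change −0.01, SE 0.07, edgeR adjusted p = 0.9). Across 204 members, the log2 mean level and the log2 fold change had a Pearson r of −0.33 in MM1S and −0.40 in MM1R. These include low members that passed the filter through treated groups, and how far that adds to the negative r was not tested. The r was not recomputed for members at the filter level with vehicle.

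Members were also set beside other zinc finger genes and beside their neighbours. Among 242 tested ZNF genes on other chromosomes, 78 rose and 33 fell in MM1S (median log2 fold change 0.16), and 88 rose and 28 fell in MM1R (0.19). Among 721 other genes of chromosome 19, 230 rose and 98 fell in MM1S (0.13), and 153 rose and 199 fell in MM1R (−0.05). These include zinc finger genes under other symbols (ZFP, ZSCAN, ZIM, ZIK or ZKSCAN). Of the 5 of them tested, 2 rose and 0 fell in each line (medians 0.36 and −0.03). A KRAB pattern was searched in the coding transcripts of GENCODE and found for 203 of 246 matched members; the pattern misses some KRAB domains. Of the 171 tested members with the pattern, 103 rose in MM1S and 122 in MM1R, with medians of 0.48 and 0.64. Of the 33 tested members without it, 16 rose in MM1S and 12 in MM1R, with medians of 0.31 and 0.14. On other chromosomes, 36 of 98 tested ZNF genes with the pattern rose in MM1S and 42 in MM1R (medians 0.24 and 0.32), and 40 of 131 without it rose in each line (medians 0.10 and 0.12). These medians and counts describe the lists, and the differences between lists were not tested.

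**Figure D4:**
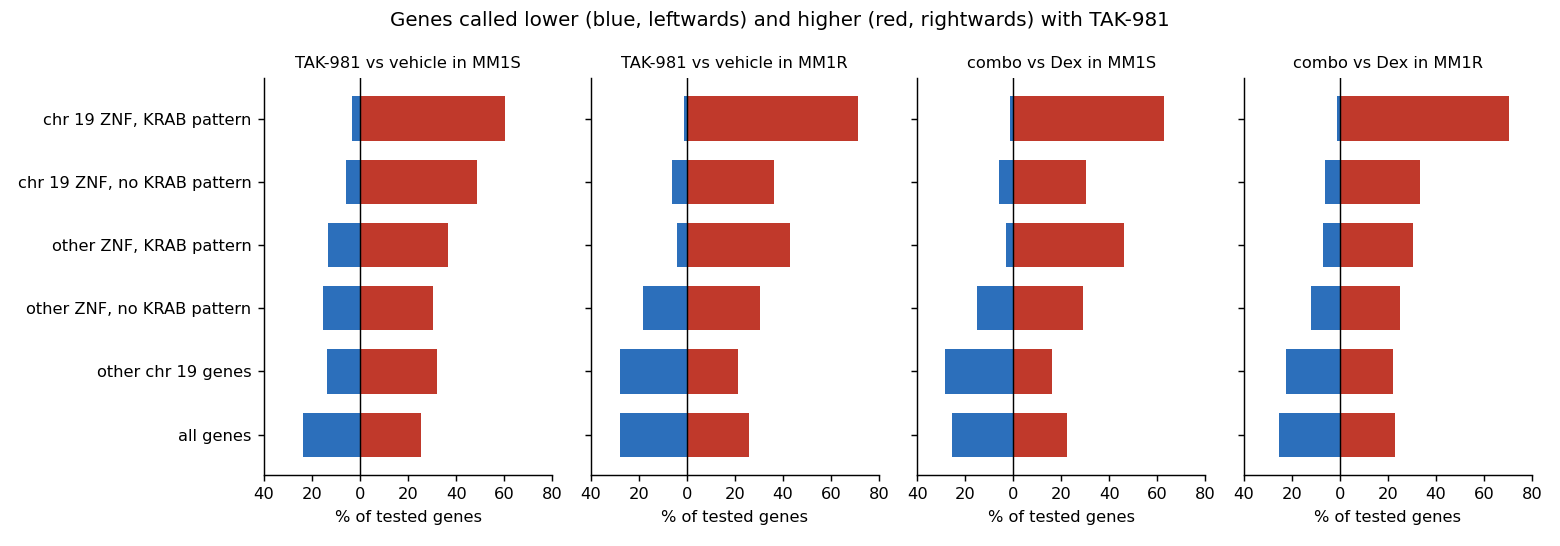
Percentage of tested genes (x axis) called higher (red, to the right) and lower (blue, to the left) at an adjusted p under 0.05 in the 4 comparisons of libraries with and without TAK-981, for 6 sets of genes. For chromosome 19 ZNF genes with the KRAB pattern the red bars run from 60.2% to 71.3% and the blue bars from 1.17% to 3.51%, beside 22.2% to 25.8% and 23.7% to 27.6% for all genes.

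The encoded proteins differed in their number of zinc fingers, with a median of 12 over the matched members, 13 with the KRAB pattern and 9 without, and the most in ZNF729 (39). The number of fingers and the log2 fold change with TAK-981 had a Pearson r of 0.05 in MM1S and 0.28 in MM1R across 204 members. The number of TGEKP linkers, the short peptides that join consecutive fingers, had an r of 0.11 in MM1S and 0.30 in MM1R, and the log2 of exon length had 0.07 and 0.30. These values are descriptions across genes, which are not independent replicates.

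A gap of more than 1000000 bases between starts was taken to separate clusters, which gave 16 groups, 7 of them with at least 10 tested members. These 7 held 195 of the 210 tested members. Over all genes tested, 25.2% rose and 23.7% fell with TAK-981 in MM1S, and 25.8% rose and 27.6% fell in MM1R. The cluster from ZNF101 to ZNF254 (chr19:19779663-24312654, hg19), which holds ZNF91, ZNF93, ZNF208 and ZNF737, had 17 of 31 members higher and 2 lower in MM1S, and 25 higher and 0 lower in MM1R, with median log2 fold changes of 0.67 and 0.98. The cluster from ZNF565 to ZNF573 (chr19:36673187-38307940) had 12 of 23 higher in MM1S and 15 in MM1R, with medians of 0.81 and 0.77. The cluster from ZNF175 to ZNF331 (chr19:52074531-54083523) had 17 of 29 higher in MM1S and 22 in MM1R and 0 lower in either (medians 0.44 and 0.80). The largest, from ZNF628 to ZNF446 (chr19:55987699-58992597), which holds ZNF264, ZNF417, ZNF587 and ZNF274, had 34 of 53 higher and 1 lower in MM1S, and 32 higher and 1 lower in MM1R (medians 0.43 and 0.41).

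The remaining clusters also had medians above 0. From ZNF557 to ZNF846 (chr19:7069471-9879410), 9 of 13 rose in MM1S and 8 in MM1R (medians 0.43 and 0.27). From ZNF653 to ZNF791 (chr19:11594242-12740676), 13 of 25 rose and 4 fell in MM1S, ZNF823, ZNF833P and ZNF788 among them, and 16 rose and 1 fell in MM1R (medians 0.58 and 0.49). From ZNF575 to ZNF296 (chr19:44029649-45579688), 11 of 21 rose in MM1S and 10 in MM1R, and 1 fell in each, ZNF428 (medians 0.31 and 0.31). Outside the 7 clusters, 8 of 15 members rose in MM1S and 9 in MM1R. Inside the limits of the clusters there were 172 genes that are not ZNF genes by symbol, 73 of them tested. They were set apart by symbol alone and can include zinc finger genes under other symbols (ZFP, ZSCAN, ZIM, ZIK or ZKSCAN). Of these 73, 23 rose (31.5%) and 6 fell (8.22%) in MM1S (median 0.23), and 21 rose (28.8%) and 13 fell (17.8%) in MM1R (0.06). The shares that rose lay near those of all genes, 25.2% in MM1S and 25.8% in MM1R, where 23.7% and 27.6% fell. Among the 195 members inside these limits, 113 rose and 9 fell in MM1S, and 128 rose and 3 fell in MM1R. Of the 73, 30 lay from ZNF557 to ZNF846, 16 from ZNF575 to ZNF296 and 15 from ZNF628 to ZNF446. The 4 from ZNF565 to ZNF573 had medians of 0.58 and 0.83, and the 2 from ZNF101 to ZNF254 had 0.73 and 1.01. The 3 from ZNF175 to ZNF331 had 0.22 and 0.58, and the 3 from ZNF653 to ZNF791 had 0.25 and −0.14.

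Promoters of members shared short sequence elements. RefSeq promoter windows (250 bases before to 50 after the start, assembly GRCh38.p14) were matched by symbol for 219 members. The letters CCGGAAG, an ETS-type motif, were found on either strand in 44.7% of the member windows, against 10.7% of all 27305 windows. CCAAT was found in 53.9% against 35.7%, the GC box GGGCGG in 67.1% against 44.6%, and TATAAA in 1.83% against 12%. The median GC content was 60% for members and 58.3% for all windows. The shares were also set beside the response, as a description. In the 94 matched members that rose in both lines CCGGAAG was present in 45.7%, and in the 90 other tested members in 47.8%, with 57.4% and 51.1% for CCAAT, 66.0% and 64.4% for GGGCGG, and 4.26% and 0.0% for TATAAA.

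The 120 bases before the start site are shown for 4 members that rose in both lines, ZNF274, ZNF208, ZNF91 and ZNF737, and for 2 that fell in both, ZNF428 and ZNF823, with matches to the 4 motifs on either strand in capitals. They lie at chr19:58182941-58183060 on the plus strand (ZNF274) and, on the minus strand, at chr19:22010944-22011063 (ZNF208), chr19:23395472-23395591 (ZNF91), chr19:20565782-20565901 (ZNF737), chr19:43619630-43619749 (ZNF428) and chr19:11738947-11739066 (ZNF823), all in GRCh38.p14.
ZNF274: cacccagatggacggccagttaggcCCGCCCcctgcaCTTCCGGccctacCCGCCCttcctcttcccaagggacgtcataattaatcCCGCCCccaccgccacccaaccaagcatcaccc
ZNF208: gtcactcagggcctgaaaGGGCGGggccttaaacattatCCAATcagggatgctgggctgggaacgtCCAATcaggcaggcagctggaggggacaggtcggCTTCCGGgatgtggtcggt
ZNF91: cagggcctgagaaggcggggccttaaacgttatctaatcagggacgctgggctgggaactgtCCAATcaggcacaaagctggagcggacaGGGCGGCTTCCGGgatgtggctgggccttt
ZNF737: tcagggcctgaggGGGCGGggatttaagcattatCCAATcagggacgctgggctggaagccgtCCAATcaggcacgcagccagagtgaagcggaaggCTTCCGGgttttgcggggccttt
ZNF428: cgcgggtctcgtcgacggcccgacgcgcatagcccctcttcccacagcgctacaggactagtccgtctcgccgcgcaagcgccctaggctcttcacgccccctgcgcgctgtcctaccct
ZNF823: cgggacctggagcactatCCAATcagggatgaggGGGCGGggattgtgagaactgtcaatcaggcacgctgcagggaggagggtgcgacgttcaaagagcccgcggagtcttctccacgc

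ZNF208, ZNF91 and ZNF737 share runs of 17 to 20 identical bases in these stretches, which lie upstream of genes of 1 cluster. ZNF823, which fell, shares a run of 16 bases with ZNF208 and with ZNF737, and holds a CCAAT box and a GC box without the ETS-type letters. ZNF428 shares at most 10 bases with any of the other 5 and has no match to the 4 motifs in this window.

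With Dex alone, members moved in both directions in MM1S. Of the 210, 33 rose and 26 fell with Dex against vehicle (20.8% and 21.5% of all genes), with a median log2 fold change of 0.05. ZNF763 was at 3.52 and 3.79 CPM with vehicle and 6.63 and 6.81 with Dex, a log2 fold change of 0.88 (SE 0.13, edgeR adjusted p = 2.64e-05). The lack of overlap was required by the rule for naming such members. ZNF557 (0.41), ZNF296 (0.54), ZNF558 (0.50) and ZNF865 (0.48) also rose. ZNF93 fell from 11.5 and 13.4 CPM to 7.20 and 5.50 (log2 fold change −0.97, SE 0.14, edgeR adjusted p = 1.26e-05), and so did ZNF788 (−1.35), ZNF530 (−0.79), ZNF833P (−1.37) and ZNF568 (−1.82), whose mouse counterpart represses a placental transcript of Igf2. In the cluster from ZNF101 to ZNF254, 10 of 31 members fell with Dex and 0 rose, with a median of −0.25. The counts of members that fell and rose changed when single libraries were left out, to 16 lower without Dex replicate 2, 17 lower without vehicle replicate 1 and 20 higher without vehicle replicate 2. The median ran from −0.00 without Dex replicate 1 to 0.07 without Dex replicate 2.

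In MM1R, 0 members rose or fell with Dex (0.0% of all genes) by edgeR, and 0 by DESeq2. At an unadjusted p under 0.05, 9 members and 395 of all 14215 genes passed in edgeR. The median log2 fold change of the members was 0.00. ZNF763, for example, was at 2.65 and 2.597 CPM with vehicle and 3.278 and 2.75 with Dex.

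The interaction of TAK-981 and Dex in MM1S asks whether the effect of combo differs from the sum of the single effects on the log2 scale. It was called for 9 members, 3 higher and 6 lower (5.47% and 9.48% of all genes). It was negative for ZNF763 (−0.76, SE 0.17, edgeR adjusted p = 0.00583), ZNF304 (−0.51), ZNF557 (−0.32), ZNF524 (−0.57), ZNF180 (−0.55) and ZNF627 (−0.49, named after its value was seen). ZNF763 reached 9.54 and 9.27 CPM with TAK-981, 6.63 and 6.81 with Dex and 10.2 and 10.2 with combo, so that the rise from Dex to combo was smaller than that from vehicle to TAK-981. The interaction was positive for ZNF568 (1.61), ZNF460 (0.43) and ZNF432 (0.55), whose calls were lost in 7, 5 and 5 of the 8 fits with a library left out. Over those 8 fits the count ran from 0 higher without Dex replicate 2 to 15 higher without TAK-981 replicate 1, and was 1 higher without vehicle replicate 2, TAK-981 replicate 2 or combo replicate 1 and 9 higher without Dex replicate 1. The count of lower members fell to 2 without vehicle replicate 1 or Dex replicate 2 and to 3 without vehicle replicate 2 or combo replicate 1. The calls of ZNF763 and ZNF304 held in all 8, and those of ZNF557, ZNF524 and ZNF180 were lost in 3, 5 and 4 of them.

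The lines differed in many genes before any treatment, and the share of members called lay near that of all genes. With vehicle, 48 members (22.9%) were higher in MM1R than in MM1S and 60 (28.6%) were lower, against 25.6% and 22.6% of all genes. The median log2 difference of the members was −0.05. ZNF175 had 99 and 106 counts in the MM1S vehicle libraries and 0 in all 8 MM1R libraries, at least 42.3-fold lower in MM1R when 3 counts in a library are taken as the limit. ZNF544 was at 13.0 and 13.8 CPM in MM1S and 1.36 and 1.24 in MM1R (log2 difference −3.36, SE 0.15, edgeR adjusted p = 3.67e-12). ZNF714 (−2.98), ZNF845 (−2.34) and ZNF506 (−2.12) were lower in MM1R as well. ZNF569 was at 1.18 and 1.13 CPM in MM1S and 7.61 and 7.46 in MM1R (2.70, SE 0.23, edgeR adjusted p = 3.07e-08), and ZNF529 (2.11), ZNF439 (2.11), ZNF850 (1.84) and ZNF264 (1.33) were also higher in MM1R. In the cluster from ZNF175 to ZNF331, 19 of 29 members were lower in MM1R and 1 was higher, with a median of −0.67. In the cluster from ZNF565 to ZNF573, which holds ZNF569, ZNF529 and ZNF850, 8 of 23 were higher and 3 lower, with a median of 0.25.

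The response to TAK-981 was compared between the lines by an interaction term. It was called for 12 members, each with the higher log2 value in MM1R (3.19% of all genes, against 0.978% in the other direction and 4.16% in all). ZNF506 was at 9.02 and 9.38 CPM with vehicle and 23.2 and 20.9 with TAK-981 in MM1S, and at 2.48 and 1.73 against 12.1 and 10.9 in MM1R. The vehicle level in MM1R was the lowest of the 4 groups, and the difference between the lines was 1.19 (SE 0.21, edgeR adjusted p = 0.00255). ZNF208 (1.13) and ZNF264 (0.59) rose in both lines and more in MM1R. For ZNF93, which fell in MM1S and did not pass the test in MM1R, the difference was 0.90. ZNF486 was at 3.15 and 2.51 CPM with vehicle and 3.11 and 2.83 with TAK-981 in MM1S, and had 1 and 2 counts with vehicle and 18 and 7 with TAK-981 in MM1R, so its difference of 3.19 rests on few counts. The others, named after their values were seen, were ZNF808 (0.54), ZNF432 (0.67), ZNF791 (0.33), ZNF714 (1.32), ZNF90 (1.38), ZNF841 (0.52) and ZNF224 (0.41). The count of 12 fell in 7 of the 8 fits with a library left out, to 1 without MM1R vehicle replicate 2, 3 without MM1S vehicle replicate 1, 4 without MM1S vehicle replicate 2, MM1R vehicle replicate 1 or MM1R TAK-981 replicate 1, 5 without MM1R TAK-981 replicate 2 and 7 without MM1S TAK-981 replicate 2. It rose without MM1S TAK-981 replicate 1, and in that fit and without MM1S TAK-981 replicate 2 members were also called in the other direction. The calls over all genes likewise rose in number without MM1S TAK-981 replicate 1 and fell without MM1R vehicle replicate 2. The swing was therefore not particular to the members. The call of ZNF506 held in all 8 fits, and those of ZNF208, ZNF264, ZNF93 and ZNF486 were lost in 1, 2, 3 and 4 of them.

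**Figure D5:**
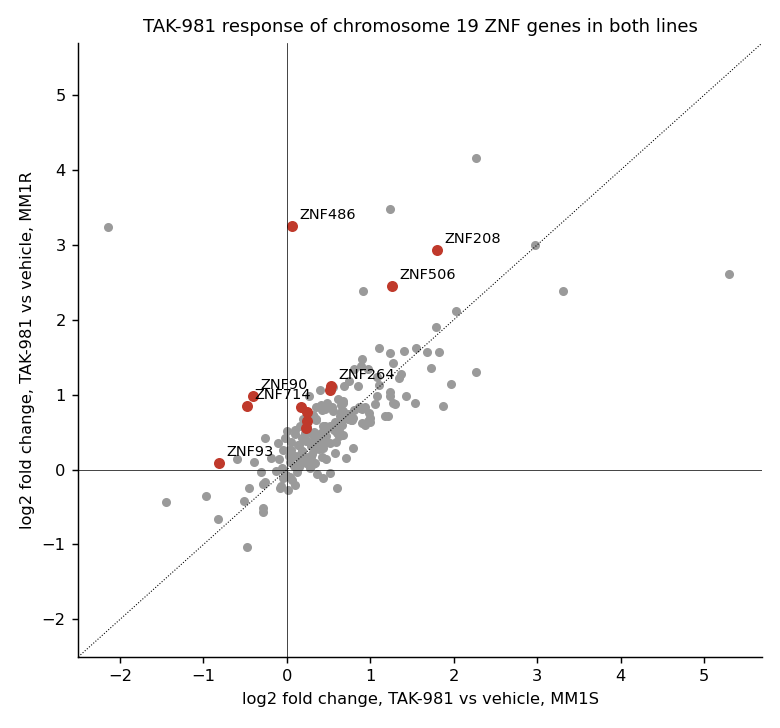
Log2 fold change of TAK-981 against vehicle in MM1S (x axis) and MM1R (y axis) for the tested chromosome 19 ZNF genes (points); the dotted line marks equal values and red points are the 12 members called in the interaction of line and TAK-981, 7 of them named. The red points lie above the dotted line.

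The proteins that KRAB zinc finger proteins work with were read from a list of 24 co-repressor genes. With TAK-981, 6 rose and 9 fell in MM1S (25% and 37.5%, against 25.2% and 23.7% of all genes), and 4 rose and 13 fell in MM1R (16.7% and 54.2%, against 25.8% and 27.6%). TRIM28, which the KRAB domain binds, was at 248.5 and 261.7 CPM with vehicle and 193.8 and 242.9 with TAK-981 in MM1S (log2 fold change −0.22, edgeR adjusted p = 0.0656), and fell from 344.5 and 354.6 to 250.3 and 260.6 CPM in MM1R (−0.45, edgeR adjusted p = 0.000845). SETDB1 was at 113.9 and 111.7 CPM with vehicle and 122.8 and 133.1 with TAK-981 in MM1S (0.18, edgeR adjusted p = 0.0186), and its MM1R value did not pass the test (0.13, edgeR adjusted p = 0.0776). ATF7IP, the partner that stabilises SETDB1, rose by 1.43 in MM1S and 1.70 in MM1R, and ATF7IP2 by 1.62 and 1.66. The heterochromatin protein genes CBX1 (−0.49 and −0.47), CBX3 (−0.62 and −0.59) and CBX5 (−0.83 and −0.56) fell in both lines, and so did the histone methyltransferase SUV39H1 (−1.10 and −0.91). CHD4 (−0.35 and −0.56) and HDAC2 (−0.27 and −0.34) fell in both as well. The lowest values on the list, −1.86 in MM1S and −1.58 in MM1R, belong to genes not named here. ATF7IP, ATF7IP2, CBX1, CBX3, CBX5, SUV39H1, CHD4 and HDAC2 were named after their values were seen. Of 16 genes of the SUMO pathway, 6 rose and 3 fell in MM1S (37.5% and 18.8%) and 5 rose and 5 fell in MM1R (31.2% and 31.2%), with SAE1 and UBA2, the subunits of the enzyme that TAK-981 inhibits, lower in both (SAE1 −0.90 and −0.93, UBA2 −0.51 and −0.57).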

How the data were processed

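The authors deposited raw counts of reads per gene symbol, not normalized, in 1 table of 23354 genes and 16 libraries, with positions of hg19. Per the labels' processing notes the tools were bcl2fastq 2.18.0.12, STAR 2.6.0, HTSeq 0.6.0 and edgeR 3.28.1; their settings are not given in the sources used here. Each library was matched to its group by the labels.

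Counts were filtered with filterByExpr (minimum count 10), scaled with TMM and fitted with 1 term per group to all 16 libraries by edgeR 4.0.16 (R 4.3.3, robust quasi-likelihood F test, 8 residual degrees of freedom). P-values were adjusted over all 14215 genes by Benjamini-Hochberg and called under 0.05. Scripts were tested on simulated data. Alternatives were RLE, library size only, no filter, DESeq2 1.42.0, a replicate block, fits of the compared groups alone, a log2 fold change of at least 1, removal of hyphenated symbols, and each library left out in turn.

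The KRAB pattern and zinc fingers were counted in coding transcripts of GENCODE 29, matched by symbol, in place of a protein table, which was not used here. Promoter sequences are RefSeq's.

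The members and gene lists were chosen with earlier results of these data known. Named genes were 10 members chosen for what is known of them and, for each comparison, up to 10 (TAK-981 against vehicle) or 5 (others) higher and lower members with the smallest adjusted p, mean log2 CPM not below 0 and no overlap of the libraries of 2 groups compared. TRIM28, SETDB1 and the members with the highest and lowest level per kilobase were added.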

Additional observations from a re-analysis of the deposited data

Results flagged for a closer look

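The response of the chromosome 19 ZNF genes to TAK-981 differed between the lines for 12 members, by the interaction of line and TAK-981 (edgeR quasi-likelihood test, adjusted p under 0.05), each with the larger log2 fold change in MM1R. That is 5.71% of the members, where 3.19% of all genes were called in that direction and 4.16% in either. The count fell without MM1R vehicle replicate 2 and rose without MM1S TAK-981 replicate 1, and so did the count over all genes. Of the 12 members, ZNF506 (MM1R minus MM1S 1.19), ZNF208 (1.13), ZNF264 (0.59), ZNF93 (0.90) and ZNF486 (3.19) had the smallest adjusted p. ZNF506, ZNF208 and ZNF264 rose in both lines. ZNF93 fell in MM1S and was at −0.81 there against 0.09 in MM1R. ZNF486 started from 1 and 2 counts in the MM1R vehicle libraries.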

How the results depend on the processing

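Each comparison was recomputed with 1 choice changed at a time. Counts of members that moved by over 1.5 times are given, and medians that moved by more than the spread between replicates, with 4 further medians for Dex in MM1S and for the interaction of line and TAK-981 that moved by less. With a log2 fold change of at least 1 required, 31 rose and 1 fell with TAK-981 in MM1S, 33 rose and 1 fell in MM1R, 29 rose and 1 fell for combo against Dex in MM1S, and 42 rose and 0 fell in MM1R. At that size 0 rose and 8 fell with Dex in MM1S, and 17 were higher and 18 lower in MM1R than in MM1S with vehicle. In the interaction of the drugs 1 was called higher and 0 lower, and in that of line and TAK-981 5 were higher. Over all genes at that size, 728 rose and 684 fell with TAK-981 in MM1S, and 1028 and 341 in MM1R. For combo against Dex it was 807 and 593 in MM1S and 888 and 308 in MM1R, and for Dex in MM1S 348 and 733. With vehicle 388 were higher and 868 lower in MM1R. In the interaction of the drugs it was 159 and 100, and in that of line and TAK-981 68 and 12. DESeq2 called 6 members lower with TAK-981 in MM1S and 3 lower in the interaction of the drugs. With library size only, that interaction had 6 members higher and a median of 0.0867, and the median was 0.0157 for Dex in MM1R, 0.0256 for Dex in MM1S and 0.1017 for the interaction of line and TAK-981. The fit of the compared groups alone gave 0 higher and 1 lower in the interaction of the drugs and a median of 0.0193 for Dex in MM1R. Without the filter on low counts, 11 were higher in the interaction of the drugs, and 19 higher and 4 lower in that of line and TAK-981, whose median was 0.027, and the median for Dex in MM1S was 0.0286. The median difference between the lines with vehicle was −0.0394 with RLE, −0.1136 with library size only, −0.0034 without the filter, −0.0668 in the fit of the groups alone and −0.0337 in DESeq2. The cause of these shifts was not tested. A gap of 500000 bases gave a lowest cluster median of 0.144 for TAK-981 in MM1R. Chosen after seeing the data, a mean of at least 5 CPM gave a median of 0.3534 (MM1S) and 0.4715 (MM1R), and the filter level in both vehicle libraries gave 0.528 in MM1R.

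Libraries with the same replicate number were not taken as pairs in the main fit. The correlation of their deviations was above 0 for every pair of groups, 0.053 to 0.448 in MM1S and 0.025 to 0.141 in MM1R. Whether the numbers mark pairs is not given in the labels and was not tested. With a replicate block the interaction of the drugs had 13 members higher and 10 lower, and that of line and TAK-981 24 higher and 5 lower. Over all genes the block gave 1383 higher and 2196 lower for the drugs, against 777 and 1348 without it. For line and TAK-981 it gave 1114 and 947, against 453 and 139. The median difference of the members between the lines with vehicle was −0.0639.

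With each library left out in turn, 96 to 119 members rose with TAK-981 in MM1S and 6 to 11 fell (medians 0.3786 to 0.5032), and in MM1R 113 to 122 rose and 3 to 4 fell (0.5155 to 0.5878). For combo against Dex, 89 to 115 rose and 2 to 5 fell in MM1S (0.3892 to 0.5082), and 110 to 116 rose and 2 to 3 fell in MM1R (0.4752 to 0.5131). With Dex in MM1S 20 to 23 rose and 16 to 27 fell, and the median ran from −0.0018, reversed in sign without Dex replicate 1, to 0.0709; in MM1R 0 to 0 rose or fell (0.0041 to 0.0213). The interaction of the drugs had 0 to 15 higher and 2 to 9 lower (−0.0537 to 0.0796), and that of line and TAK-981 1 to 28 higher and 0 to 6 lower (0.0066 to 0.1113). Between the lines with vehicle, 38 to 42 were higher and 41 to 50 lower in MM1R (−0.0828 to −0.0443). Of the alternative values of single named genes, 885 kept their direction and side of the threshold, 124 were no longer past it and 0 were reversed. This tally does not measure how firm the calls are. Where a log2 fold change of at least 1 was required, genes under that size were set as not past the threshold. Genes that did not pass in the main fit, such as ZNF331, could also be counted as keeping their side. With 2 libraries a group, members of few counts are imprecise.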
